A study of Mus musculus with 3 samples.

Results

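The 10 genes described here belong to the S100 and annexin families of calcium-binding proteins and were measured in sorted mouse pancreatic cells. The members are S100a4, S100a6, S100a8, S100a9, S100a10, S100a11, Anxa1, Anxa2, Anxa3 and Anxa5. They were taken by symbol from the platform annotation, using probe sets that list 1 gene, and a gene with several probe sets was represented by the one with the highest mean over the 3 arrays. All 10 were found, among 19938 genes in all, with 19 other S100 and annexin genes measured beside them.

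The study asked what loss of Fbw7, the substrate-binding subunit of a ubiquitin ligase, does to ductal cells of the pancreas, and each of its 3 groups was a single array. Beta cells (genotype Fbw7 +/+; MIP-GFP, in which an insulin promoter drives green fluorescent protein) were pooled from 3 untreated mice. Fbw7-deleted ductal cells (genotype Fbw7 F/F with Ck19-CreERT and R26-LSL-YFP) were pooled from 6 mice given tamoxifen for 5 days and sampled 7 days after the last dose. Wild-type ductal cells (genotype Fbw7 +/+ with Ck19-CreERT and R26-LSL-YFP) were pooled from 6 mice given the same tamoxifen course. In both ductal groups the Cre came from the cytokeratin 19 promoter and labelled the cells in which it acted with a yellow reporter. All mice were C57BL/6 and older than 6 weeks, and 30000 cells were sorted for each array and 18 ng of their RNA amplified. Beta and ductal arrays differ in cell type, reporter and tamoxifen together, and these cannot be told apart. With 1 array per group no difference below has a replicate check, and no test was possible.

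S100 proteins are small calcium sensors with a pair of EF-hand loops. Most work as dimers that expose a binding surface when calcium enters the cell. Annexins are unrelated in sequence and bind acidic phospholipids of membranes in the presence of calcium. The families meet in fixed partnerships: S100A10, which has lost calcium binding, holds annexin A2 at the plasma membrane, and S100A11 binds annexin A1. In epithelia these proteins are known for membrane repair, secretion and the response to injury, while S100A8 and S100A9 together form calprotectin, an abundant protein of neutrophils.

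Promoter windows, each covering 250 bases before and 50 bases after an annotated transcript start, were available from RefSeq (GRCm38.p6) for 8 of the 10 members. S100a4 and S100a8 are shown because they lie in the same gene cluster, and S100a4 gave signal in ductal cells while S100a8 was below the detection floor used here on every array. S100a11 and Anxa2 are shown because both were lower on the beta cell array and are the members with an AP-1 match. Capitals mark matches on either strand to 4 motifs. The TATA box was searched as TATAAA, the AP-1 site as TGANTCA, the GC box as GGGCGG and a pair of C/EBP half-sites as TTGCNNAA. Sequences run 5′ to 3′ on the strand of the gene.
S100a4, chr3:90603520-90603819, plus strand: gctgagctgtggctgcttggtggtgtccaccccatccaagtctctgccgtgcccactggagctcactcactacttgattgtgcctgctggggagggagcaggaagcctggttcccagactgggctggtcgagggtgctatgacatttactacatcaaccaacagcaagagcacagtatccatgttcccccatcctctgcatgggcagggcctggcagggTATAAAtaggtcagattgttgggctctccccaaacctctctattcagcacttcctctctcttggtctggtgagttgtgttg
S100a8, chr3:90668821-90669120, plus strand: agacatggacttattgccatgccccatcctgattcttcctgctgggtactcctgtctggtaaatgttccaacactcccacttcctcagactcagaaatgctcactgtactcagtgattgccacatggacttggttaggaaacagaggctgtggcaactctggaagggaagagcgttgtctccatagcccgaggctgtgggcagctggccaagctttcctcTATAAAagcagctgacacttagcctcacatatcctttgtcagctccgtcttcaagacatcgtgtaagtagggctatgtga
S100a11, chr3:93520246-93520545, plus strand: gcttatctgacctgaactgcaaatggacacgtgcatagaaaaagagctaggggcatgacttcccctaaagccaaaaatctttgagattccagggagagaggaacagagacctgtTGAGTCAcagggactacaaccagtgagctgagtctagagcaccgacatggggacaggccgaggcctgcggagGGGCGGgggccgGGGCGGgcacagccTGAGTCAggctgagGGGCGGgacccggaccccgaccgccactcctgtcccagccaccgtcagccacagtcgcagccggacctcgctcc
Anxa2, chr9:69453433-69453732, plus strand: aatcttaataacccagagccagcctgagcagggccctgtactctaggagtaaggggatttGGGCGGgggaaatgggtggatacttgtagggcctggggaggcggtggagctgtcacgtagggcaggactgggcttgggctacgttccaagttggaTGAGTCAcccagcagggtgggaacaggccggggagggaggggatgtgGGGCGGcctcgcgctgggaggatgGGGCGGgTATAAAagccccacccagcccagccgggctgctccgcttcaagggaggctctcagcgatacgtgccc

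A TATA box began 31 bases upstream of the S100a4 start and 30 bases upstream of the S100a8 start. The S100a11 window held 2 AP-1 matches, 136 and 38 bases upstream, and 3 GC boxes. The Anxa2 window held 1 AP-1 match, 95 bases upstream, 3 GC boxes and a TATA box 17 bases upstream. Over the 8 members with a window, 5 held TATAAA, against 13.6% of all 32851 windows. TGANTCA was found in 2 of 8, against 7.81% of all windows, GGGCGG in 3 of 8, against 35.7%, and TTGCNNAA in 2 of 8 (S100a9 and Anxa1), against 10.8%. None of the 17 matches overlapped another. These are matches of letters only.

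In the RefSeq gene order, 12 S100 genes lie next to each other on chromosome 3, with no other coding gene between them, from S100a1 to S100a9. S100a11 and S100a10 stand side by side farther along, 54 coding genes past S100a7l2. Neighbours in this stretch did not share 1 pattern over the arrays. S100a4 and S100a6 were both lower in beta cells, whereas S100a5, which lies between them, was below the floor throughout and read 4.02 in beta cells, 3.59 in deleted ductal cells and 3.98 in wild-type ductal cells.

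Levels are log2 intensities of a probe set. They were compared between arrays for the same gene but not between genes, because probes differ in brightness. The arrays did not share 1 distribution. The standard deviation over all probe sets was 1.57 in beta cells, 1.97 in deleted and 2.02 in wild-type ductal cells. Differences between beta and ductal arrays therefore depend on the scaling, and values under other scalings are given below. The floor of an array is the median level of its single-gene probe sets, which was 5.30 in beta cells, 5.24 in deleted ductal cells and 5.23 in wild-type ductal cells. In each comparison 8 members entered because the higher of both levels passed this floor, and S100a8 and S100a9 did not. Fbxw7, the targeted gene, has 2 probe sets of its own: 1 read 4.95 on every array, and the other read 7.00 in beta cells, 5.71 in deleted ductal cells and 6.32 in wild-type ductal cells (-0.61 between the ductal arrays). The files do not place either probe set against the floxed exons, so these values do not check the deletion. Of 35556 probe sets, 47.2% had identical values on the ductal arrays and 16.1% on all 3, so identical values are common in these files.

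**Figure D1:**
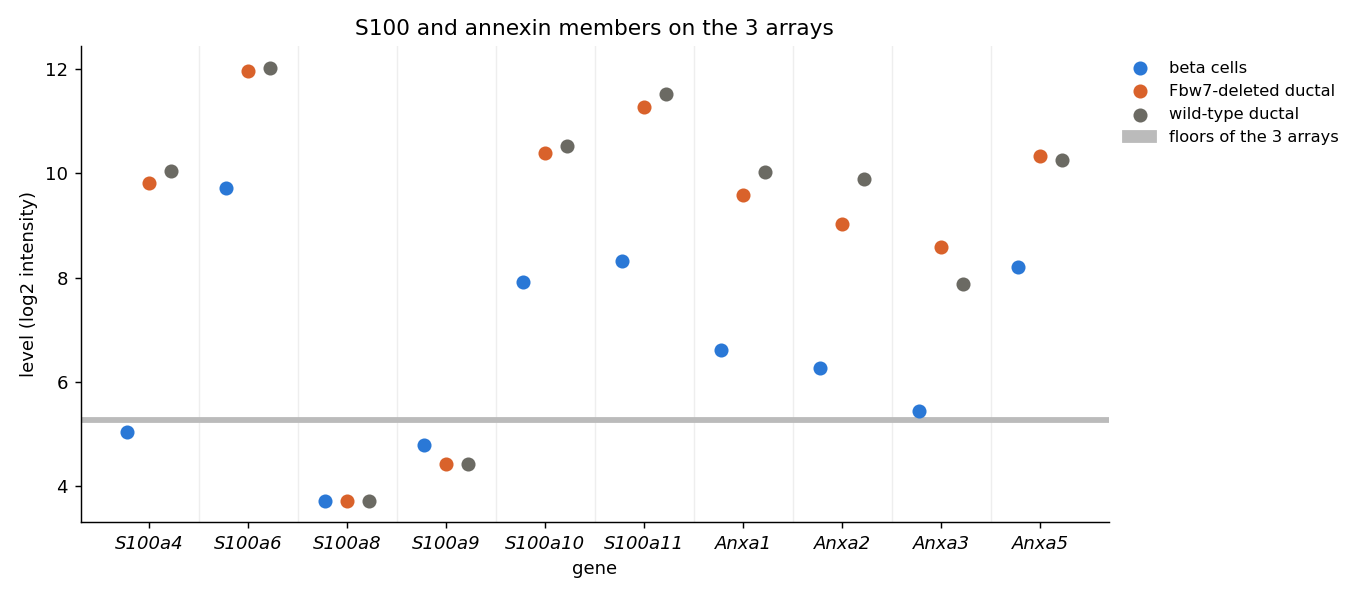
Level of each member (vertical axis, log2 intensity) in beta cells, Fbw7-deleted ductal cells and wild-type ductal cells, 1 array each; the grey band spans the floors of the 3 arrays. The 8 members with a level above the floor stand lower in beta cells than in both ductal arrays, while S100a8 and S100a9 lie under the floor on every array; points are to be compared within a gene.

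Of the 6 S100 members, S100a6, S100a10 and S100a11 read above the floor on every array and S100a4 on the ductal arrays. S100a6, or calcyclin, binds the calcyclin-binding protein and tropomyosin. Its level was 9.71 in beta cells, 11.96 in deleted ductal cells and 12.02 in wild-type ductal cells. The ductal arrays lay close together and the beta cell array lower. Within its own array S100a6 stood above 99.51% of genes in beta cells, 99.91% in deleted and 99.96% in wild-type ductal cells. S100a11, the partner of annexin A1, read 8.32 in beta cells, 11.27 in deleted ductal cells and 11.52 in wild-type ductal cells. Its other probe set read 8.15, 11.28 and 11.46 in the same order, so both placed beta cells lowest and deleted ductal cells slightly under wild type. S100a10, the partner of annexin A2, read 7.91 in beta cells, 10.39 in deleted ductal cells and 10.51 in wild-type ductal cells. The ranks of S100a11 and S100a10 were also near the top of each array. There a small step in rank can go with a large difference in level. After quantile normalization, which depends on ranks alone, beta minus wild-type ductal cells was -2.07 for S100a6, -2.43 for S100a11 and -1.52 for S100a10. S100a11 stood above 98.74% of genes in beta cells, 99.71% in deleted and 99.87% in wild-type ductal cells. For S100a10 these were 98.18%, 99.33% and 99.38%.

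S100a4 had the largest difference of the 10 members between beta and ductal arrays. S100a4, also called metastasin, binds non-muscle myosin and is much used as a fibroblast marker. It read 5.05 in beta cells, under the floor, against 9.82 in deleted ductal cells and 10.04 in wild-type ductal cells. Within its own array it stood above 41.28% of genes in beta cells, 98.85% in deleted ductal cells and 98.93% in wild-type ductal cells, a measure that does not depend on how arrays are scaled. Neither calprotectin gene reached the floor. S100a8 read 3.73 on all 3 arrays, and S100a9 read 4.78 in beta cells and 4.43 in both ductal arrays. Their differences therefore have no direction here.

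Leukocyte transcripts were nevertheless present on the beta cell array. Of 9 pan-leukocyte markers, 7 read above the floor in beta cells, 1 in deleted ductal cells and 1 in wild-type ductal cells; Cd52 read 7.62 in beta cells, 4.37 in deleted and 4.30 in wild-type ductal cells. Of 12 neutrophil markers, 2 read above the floor on each array, Lcn2 and Camp. The granule gene Ngp (5.29, 3.96 and 3.96 in beta, deleted and wild-type ductal cells) and the receptor genes Csf3r and Cxcr2 were below it on every array. Lcn2, which epithelia also make, read 5.33 in beta cells, 8.83 in deleted ductal cells and 8.94 in wild-type ductal cells.

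All 4 annexin members read above the floor on each array and lowest in beta cells. Anxa5 encodes a phosphatidylserine-binding annexin used to stain dying cells. It read 8.19 in beta cells, 10.33 in deleted ductal cells and 10.25 in wild-type ductal cells. Anxa1, whose product dampens inflammation through formyl peptide receptors, read 6.61 in beta cells, 9.57 in deleted ductal cells and 10.03 in wild-type ductal cells. Anxa2, which links membranes to actin and serves with S100A10 as a docking site for plasminogen, read 6.26 in beta cells, 9.02 in deleted ductal cells and 9.89 in wild-type ductal cells. Anxa3 read 5.44 in beta cells, just over the floor, 8.58 in deleted ductal cells and 7.87 in wild-type ductal cells. Its product is also abundant in neutrophils. Deleted ductal cells had the highest Anxa3 level of the 3 arrays, while for Anxa1 and Anxa2 that place fell to wild-type ductal cells. By rank, Anxa5 stood above 98.58% of genes in beta cells and 99.17% in wild-type ductal cells. In the same order Anxa1 stood above 89.71% and 98.92%, Anxa2 above 82.31% and 98.74%, and Anxa3 above 55.41% and 91.93%.

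Fbw7-deleted cells were set beside wild-type ductal cells. Each genotype was 1 pool on 1 array, so the deletion cannot be told apart from other differences between the pools, such as their mix of cells. Of the 8 members above the floor, 0 were higher by 2-fold or more and 0 were lower by as much. Over all 10035 genes above the floor, 1.43% were higher by 2-fold or more and 1.81% lower. The members' median difference was -0.17 on the log2 scale, beside 0 over all genes, with 2 members higher and 6 lower by any amount. Over all genes 35.4% were lower by any amount, 16.4% higher and 48.2% identical, so genes that differed were more often lower. The members' median was -0.24 after quantile normalization. With a loess trend on the mean level removed it was -0.03, with 4 members higher and 4 lower. Anxa2 was 1.83-fold lower (-0.87), and 2.72% of genes lay as low or lower. Anxa3 was 1.63-fold higher (0.71), and 2.28% of genes lay as high or higher. These 2 annexins thus went opposite ways, and they were the members past 1.5-fold. Over the alternative scalings and probe set rules Anxa2 ranged from -0.88 to -0.76 and Anxa3 from 0.70 to 0.79.

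The other members differed less between the ductal arrays. Anxa1 was at -0.45, S100a11 at -0.25, S100a4 at -0.22, S100a10 at -0.13, S100a6 at -0.06 and Anxa5 at 0.08. With the loess trend removed, S100a6 was at 0.13 and S100a10 at 0.02, so the sign of these small differences depends on the scaling. In the pair S100a10 and Anxa2 the S100 gene was nearly level and the annexin gene was not.

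Other annexin genes also lay on both sides of 0 in this comparison. Of 19 other S100 and annexin genes, 9 were above the floor, and their median was -0.12. Of these, 1 was higher by 2-fold or more and 0 were lower. The 1 was Anxa13, an annexin of gut and kidney epithelium, which read 7.42 in deleted and 5.44 in wild-type ductal cells, 3.92-fold higher; 0.458% of genes lay as high or higher. Anxa4, an annexin of secretory epithelia, read 9.42 against 8.59, 1.77-fold higher. Anxa6 went the other way and read 7.30 in deleted against 8.18 in wild-type ductal cells, 1.84-fold lower; its second probe set read 5.20 on all 3 arrays, below the floor. Anxa8 read 9.14 against 9.24. Of the other S100 genes, S100a1 (8.63 in deleted against 9.24 in wild-type ductal cells), S100a13 (6.84 against 7.45) and S100a16 (7.28 against 7.39) were above the floor and all 3 were lower by less than 2-fold.

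Markers of other cell types also differed between the ductal arrays. As background, 1.43% of all genes above the floor were higher by 2-fold or more and 1.81% lower. By any amount 16.4% were higher and 35.4% lower. Of 11 duct epithelial markers measured, 10 were above the floor and all of those were higher in deleted cells, 4 of them by 2-fold or more, with a median of 0.92. Cdh1 read 9.17 in deleted and 6.54 in wild-type ductal cells, and Krt8 read 10.34 against 9.38. Acinar markers, the digestive enzymes among them, were also higher: 7 of 10 were so by 2-fold or more and 1 was lower, with a median of 1.52 and Spink1 at 2.78. Of 11 mesenchymal markers, 9 were lower and 4 at least 2-fold lower, with a median of -0.45; Pdgfra read 7.73 in deleted against 9.71 in wild-type ductal cells. The part of these shifts in the differences of Anxa3, Anxa4, Anxa13, Anxa2 and Anxa6 was not tested. Since these are bulk samples, fewer cells of a type and less RNA per cell cannot be told apart. Mesothelial markers had a median of 0.03 over 12 genes, with 0 apart by 2-fold. Endothelial, monocyte, neutrophil and pan-leukocyte lists had 3, 4, 2 and 1 genes above the floor, with 0 apart by 2-fold, and of 4 beta cell markers 1, Slc2a2, was higher by that much.

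**Figure D2:**
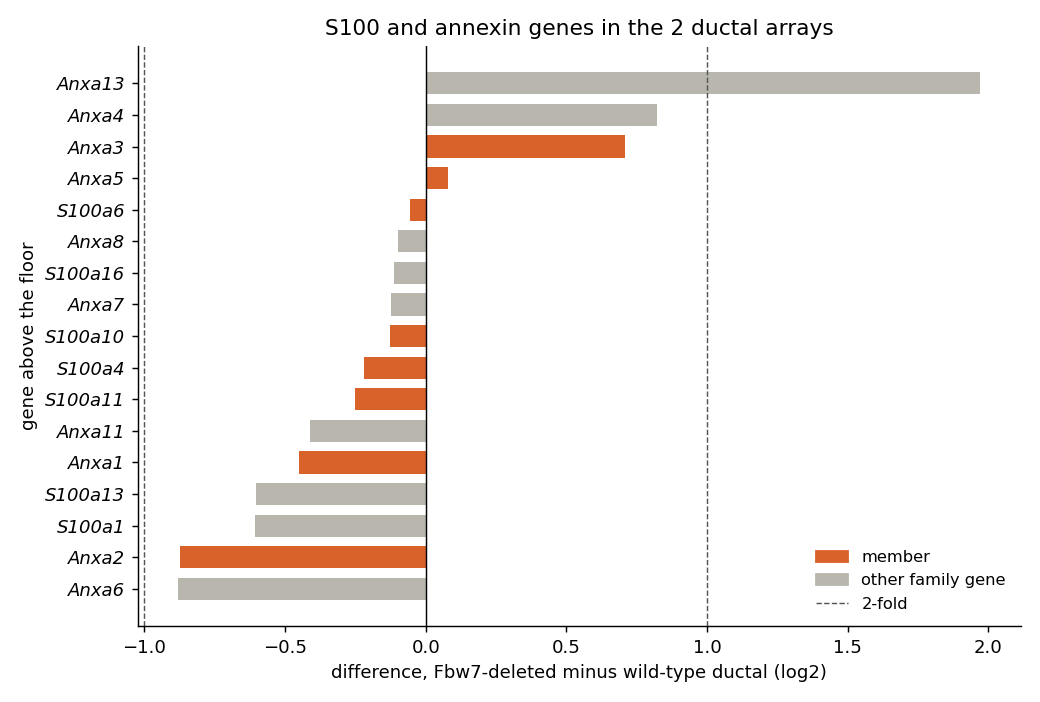
Difference in log2 level, Fbw7-deleted minus wild-type ductal cells (horizontal axis), for the 17 S100 and annexin genes above the floor, members in orange and other family genes in grey; dashed lines mark 2-fold. Anxa13 alone passes 2-fold, at 1.97, with Anxa4 and Anxa3 next, and Anxa2 and Anxa6 stand lowest.

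Of 12 listed genes of plasminogen activation and membrane scaffolding, 8 were above the floor, 5 of them lower, 2 identical and 1 higher, with a median of -0.43 and 1 lower by 2-fold or more. For comparison, 35.4% of all genes were lower by any amount, 48.2% identical, 16.4% higher and 1.81% lower by 2-fold or more. The median of the plasminogen and scaffold list was -0.25 after quantile normalization, with 0 lower by 2-fold, and -0.35 with the loess trend removed. Under each of these scalings 5 of 8 were lower by any amount, beside 47.4% and 45.4% of all genes. Plat, which encodes tissue plasminogen activator, read 6.81 in deleted and 7.91 in wild-type ductal cells (-1.10). Plau, the urokinase gene, was at -0.93, Plaur, its receptor gene, at -0.74, and Ahnak, a giant scaffold protein bound by annexin A2 and S100A10, at -0.23. Of 10 membrane repair genes above the floor, 0 were 2-fold apart, and their median was -0.17. Of 4 receptor genes above the floor, 0 were 2-fold apart and their median was -0.09. Tlr4 was at -0.47, Alcam, a cell adhesion receptor, at 0.64, and Ager, the receptor for advanced glycation end products, at -0.06.

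Beta cells were next set against wild-type ductal cells, each named by its label. Both arrays also carried markers of other cell types. All 10 acinar markers measured were above the floor in beta cells, and all 12 mesothelial markers in wild-type ductal cells. All 8 members above the floor were lower in beta cells by 2-fold or more, and 0 were higher. Over all 11139 genes above the floor, 25.8% were lower by 2-fold or more and 6.37% higher. The members' median difference was -2.90, beside -0.11 over all genes. On the deposited scale S100a4, with its beta cell level under the floor, was at least 26.6-fold lower. Anxa2 was 12.4-fold lower (-3.63), Anxa1 10.7-fold (-3.42) and S100a11 9.17-fold (-3.20), and no more than 2.53% of genes lay as low as any of these 4. S100a10 was 6.08-fold, Anxa3 5.38-fold, S100a6 4.98-fold and Anxa5 4.17-fold lower.

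Genes with more signal were more often lower on the beta cell array. With the floor at the 75th percentile of each array, 41.0% of genes were lower by 2-fold or more and the median over all genes was -0.69. The size of the differences therefore depends on the scaling. The members' median was -2.25 after quantile normalization, where the median over all genes was 0.09, and -1.73 with the loess trend removed, where it was 0.03. After quantile normalization 7 of the 8 members were past 2-fold, where 17.9% of genes were that much lower, and the exception was Anxa5 at -0.98. With the loess trend removed 6 of 8 were, where 16.2% of genes were, and S100a6 was at -0.63 and Anxa5 at -0.49. Of genes apart by 2-fold or more, 19.8% were higher in beta cells as deposited, 37.3% after quantile normalization and 35.0% with the trend removed. Over the alternatives S100a4 ranged from -5.06 to -3.85, Anxa2 from -3.70 to -2.24 and Anxa1 from -3.49 to -1.96, all past 2-fold.

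Beta cells were also set against deleted ductal cells, and both comparisons use the same beta cell array. Here 8 of 8 members were lower by 2-fold or more and 0 were higher, while 23.0% of 11095 genes were lower by 2-fold or more and 5.13% higher. The members' median was -2.85, beside -0.05 over all genes. On the deposited scale S100a4 was at least 22.8-fold lower, Anxa3 8.80-fold, Anxa1 7.83-fold, S100a11 7.70-fold, Anxa2 6.76-fold, S100a10 5.56-fold, S100a6 4.78-fold and Anxa5 4.40-fold lower. Anxa3 was thus farther from beta cells in the deleted array (-3.14) than in the wild-type array (-2.43), and Anxa2 nearer (-2.76 and -3.63). After quantile normalization all 8 stayed past 2-fold, where 16.8% of genes were that much lower, and the members' median was -2.06. With the loess trend removed 7 of 8 were, where 15.6% of genes were, with a median of -1.72 and Anxa5 at -0.84. S100a4 ranged from -4.83 to -3.88 over the alternatives. The share of genes apart that were higher was 18.2% as deposited, 35.8% after quantile normalization and 31.2% with the trend removed.

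**Figure D3:**
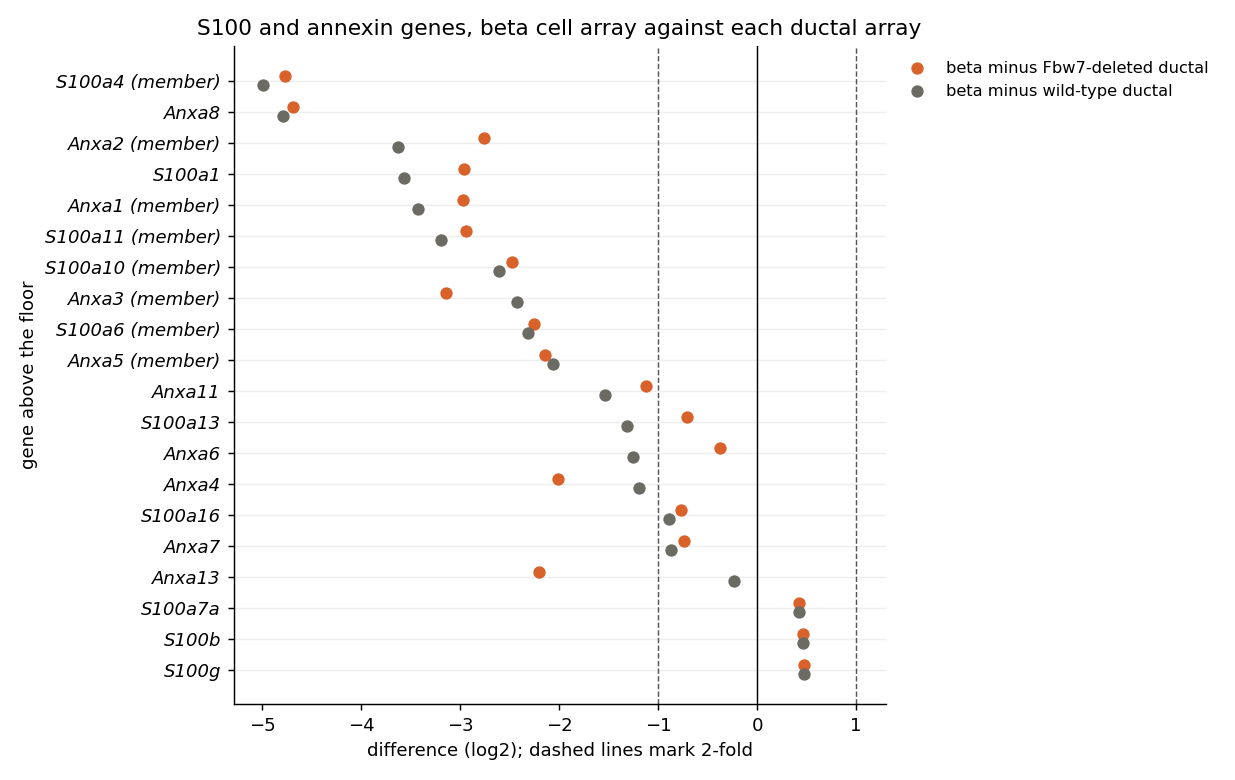
Difference in log2 level (horizontal axis) of beta cells minus Fbw7-deleted ductal cells (orange) and of beta cells minus wild-type ductal cells (grey), for the 20 S100 and annexin genes above the floor in either comparison; dashed lines mark 2-fold. All 8 members lie left of -2, with S100a4 and the family gene Anxa8 farthest. The beta cell levels of S100a4 and Anxa8 lie under the floor, so their points are measured differences that the text gives as bounds. Anxa13, also under the floor in beta cells, is drawn as a measured difference too. S100a7a, S100b and S100g lie just right of 0, with levels under the floor in both ductal arrays.

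Other family genes split in the beta cell comparisons. Of 12 above the floor, 6 were lower by 2-fold or more in beta cells compared with wild type and 0 were higher, with a median of -1.04, where 25.8% of all genes were that much lower. After quantile normalization and with the loess trend removed 2 of 12 were, a share near the 17.9% and 16.2% of all genes. Compared with deleted ductal cells, 5 of 12 were lower by 2-fold or more, with a median of -0.76, where 23.0% of all genes were that much lower. In that comparison 3 of 12 were after quantile normalization, beside 16.8% of all genes, and 3 of 12 with the loess trend removed, beside 15.6%. Anxa8 stood out with 4.45 in beta cells, under the floor, 9.14 in deleted and 9.24 in wild-type ductal cells, which is at least 14.3-fold lower than in deleted and at least 15.3-fold lower than in wild-type ductal cells. S100a1, best known from heart muscle, read 5.67 in beta cells, 8.63 in deleted and 9.24 in wild-type ductal cells. Anxa4 read 7.41 in beta cells, 9.42 in deleted and 8.59 in wild-type ductal cells; against wild type it was at -1.19 as deposited, -0.03 after quantile normalization and 0.17 with the loess trend removed. S100b, a glial S100 gene, read 5.63 in beta cells and 5.16 in both ductal arrays. The 7 family genes under the floor on all 3 arrays were S100a2, S100a3, S100a5, S100a14, S100z, Anxa9 and Anxa10.

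Mesothelial, mesenchymal and duct epithelial lists had medians on the same side as the members, and so did the neutrophil list, whose 2 genes above the floor were split (median -1.41, with Lcn2 at -3.61 and Camp at 0.79). The medians of the acinar, endothelial, pan-leukocyte and monocyte lists lay on the other side, although Cd14 of the monocyte list was at -3.97. Of 12 mesothelial markers, 12 read above the floor in both ductal arrays and 7 in beta cells, and 11 were lower by 2-fold or more in beta cells compared with wild type, with a median of -4.36. Their levels ran from 3.82 to 6.33 in beta cells, from 7.22 to 10.73 in deleted and from 6.33 to 10.62 in wild-type ductal cells. Msln, which encodes mesothelin, read 5.53 in beta cells, 10.73 in deleted and 10.61 in wild-type ductal cells. The median was -2.06 for 11 mesenchymal markers, 8 of them lower by 2-fold or more. It was -1.13 for 10 duct epithelial markers, 5 of them lower by as much, where 25.8% of all genes were. After quantile normalization these medians were -1.47 (7 of 11 past 2-fold) and -0.18 (3 of 10), where 17.9% of genes were that much lower. With the loess trend removed they were -0.90 (5 of 11) and -0.09 (2 of 10), where 16.2% were. Mesothelial markers past 2-fold stayed at 11 of 12 in both. Krt19, whose promoter drove the Cre, read 6.71 in beta cells, 9.53 in deleted and 9.13 in wild-type ductal cells. Of 12 beta cell markers, 9 were above the floor on the beta cell array, and 6 were higher there by 2-fold or more compared with wild type. Over all genes 6.37% were that much higher. These counts use measured levels. Nkx6-1 and Ucn3, counted among the markers, were under the floor in wild-type ductal cells, and against that floor were at least 1.94-fold and 1.62-fold higher. Ins2 read 11.04 in beta cells, 5.87 in deleted and 5.31 in wild-type ductal cells. Mafa read 5.49 on all 3 arrays. Slc2a2 read 6.05 in beta cells, 6.90 in deleted and 5.64 in wild-type ductal cells. Pdx1, G6pc2 and Gjd2 were below the floor on the beta cell array. All 10 acinar markers were above the floor on each array, with medians of 12.06 in beta cells, 11.36 in deleted and 9.52 in wild-type ductal cells. Of 9 endothelial markers, 8 were above the floor in beta cells and 3 in each ductal array, and of 10 monocyte and macrophage markers 7 were in beta cells and 4 in each ductal array. Whether the members' signal came from duct epithelium, mesothelium or mesenchyme was not tested.

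**Figure D4:**
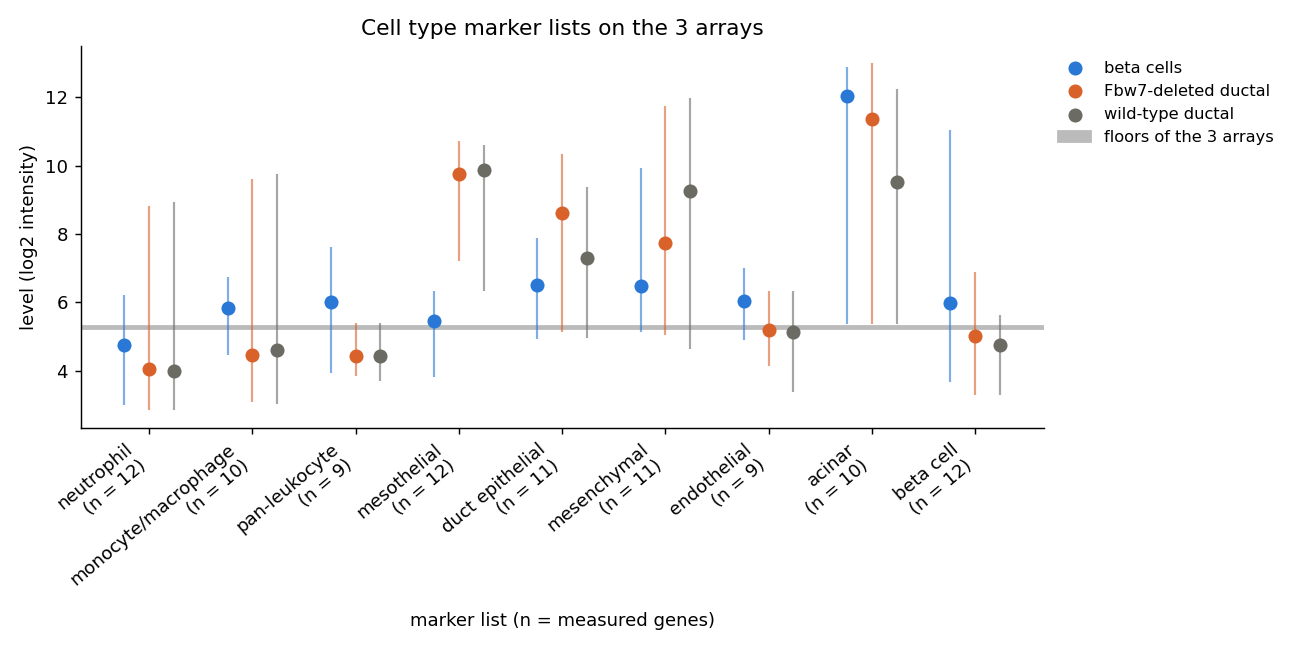
Level (vertical axis, log2 intensity) of 9 cell type marker lists in beta cells, Fbw7-deleted ductal cells and wild-type ductal cells; points are medians over the measured genes and lines run from the lowest to the highest gene. Mesothelial and mesenchymal medians are lowest in beta cells, leukocyte and endothelial medians highest there, and the duct epithelial median is highest in deleted ductal cells.

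Partner lists were compared with the same background, in which 25.8% of genes were lower in beta cells by 2-fold or more and 53.8% by any amount. For the rescaled counts below, the share lower by 2-fold or more was 17.9% after quantile normalization and 16.2% with the loess trend removed. Of 11 membrane repair genes above the floor, 10 were lower by 2-fold or more than in wild type, with a median of -1.71; after quantile normalization 6 of 11 were and with the loess trend removed 5 of 11. Cav1, which encodes the caveolar coat protein caveolin, was 13.6-fold lower, and Myof, an annexin-associated ferlin, 4.45-fold lower. Dysf, the related ferlin of muscle, was the 1 gene that read higher, at 6.16 in beta cells and 4.75, under the floor, in both ductal arrays, at least 1.90-fold higher against the wild-type floor. Of 8 plasminogen and scaffold genes, 4 were lower by 2-fold or more, among them Plat (4.19-fold) and Ahnak (2.50-fold), and 2 of 8 under either scaling, where the median was -0.09 after quantile normalization and 0.02 with the loess trend removed. Of 4 receptor genes above the floor 3 were lower by 2-fold or more: Tlr4, a receptor of calprotectin, was at least 4.73-fold lower, Bsg, which encodes basigin, 3.90-fold, and Alcam 2.14-fold lower. Under either scaling 1 of these 4 was past 2-fold. Ager read 5.56 in beta cells, 5.36 in deleted and 5.42 in wild-type ductal cells.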

How the data were processed

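The authors deposited 1 table of log2 intensities, 1 value for each of 35556 probe sets on 3 arrays, made with RMA per the submitters' processing notes; not given in the sources used here are its version and the set of arrays it was run on. Per the labels' protocols, RNA was amplified and converted with NuGEN kits and labelled with biotin. From these values, probe sets were named through the platform annotation: 21789 list 1 gene, 1621 several and 12146 none. Of the first, 21698 matched a RefSeq gene (GRCm38.p6) by gene ID, and the rest were kept under their platform symbol. With 1 probe set kept for each gene, this gave 19938 genes. Genes were compared where the higher level passed the floor, its array's median over single-gene probe sets. For 3 pairs of arrays the log2 levels were subtracted, and differences of 2-fold or more were counted. Counts, medians and shares of genes use the levels as measured, also those under the floor. Only for folds given as "at least" did the floor replace a level under it, on the deposited scale. With all levels raised to the floor, 2.94% of genes were higher in beta than wild-type ductal cells by 2-fold or more, against 6.37% as measured. The share lower was 24.3%, against 25.8%. No p-value is given, since each group has 1 array, and the number of arrays limits the precision.

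The members and the 7 pathway and 9 marker lists were chosen with earlier results of these data known. Genes named in the text are the members, all other S100 and annexin genes, Fbxw7, up to 4 genes of each list (in a comparison, 2 at either end of the differences). The 2 genes nearest to each member by level were also part of the rule but are not reported, since levels of different probe sets cannot be compared; further list and marker genes named for their level were chosen after their values were seen. Listed genes without a probe set of their own were not analysed here. The alternatives tried were 1.5-fold and 4-fold in place of 2-fold, quantile normalization, arrays centred on their medians, removal of a loess trend (span 0.3), the floor dropped or set at the 75th percentile, and averaged probe sets of a gene; levels raised to the floor, and both scalings for the pathway and marker lists, were added after seeing the data. The counting steps were tested on simulated data. The software was statsmodels 0.14.6 for loess, pandas 2.3.3 and numpy 2.4.6 for the tables and matplotlib 3.10.9 for plots, under Python 3.11.15.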

Additional observations from a re-analysis of the deposited data

How the results depend on the processing

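No paired analysis was possible because each group has 1 array. For the members, the counts past the fold stayed within 1.5 times of the reported ones under each alternative except 1.5-fold between the ductal arrays, which counted 1 member higher and 1 lower. Their medians kept their sign and their side of 2-fold, and their values after quantile normalization and loess are given with each comparison. Without a floor the members' median between the ductal arrays was -0.09. The other family genes depended more on the processing. Between the ductal arrays, 2 of them were higher and 3 lower at 1.5-fold, and 0 were higher at 4-fold. For beta minus wild-type ductal cells, 2 were lower at 4-fold, 2 after quantile normalization and 2 with the loess trend removed, and their median was 0 with no floor, -0.29 after quantile normalization, -0.23 with the loess trend removed and -0.87 when probe sets of a gene were averaged. With no floor, genes under the floor on all arrays enter that median. For beta minus deleted ductal cells, 8 were lower at 1.5-fold, 3 after quantile normalization and 3 with the loess trend removed, and the median was -1.12 with the floor at the 75th percentile, 0 with no floor, -0.30 after quantile normalization and -0.33 with the loess trend removed. Anxa4 was at 0.17 in beta minus wild-type ductal cells with the loess trend removed, the opposite sign to the deposited values; the cause was not tested. Differences of levels near the floor are limited by the signal over background.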

Other observations

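Other calcium sensors with EF-hands and the cytoskeletal partners of S100 proteins were described in the same way. All 12 EF-hand sensors above the floor were lower in deleted ductal cells compared with wild type, by less than 2-fold, with a median of -0.24 beside 0 over all genes, of which 35.4% were lower by any amount. After quantile normalization 11 of 12 were lower, beside 47.4% of all genes, and with the loess trend removed 11 of 12, beside 45.4%, with a median of -0.17 in each. In beta cells 5 of 12 were lower by 2-fold or more compared with wild type, with a median of -0.87, where 25.8% of all genes were that much lower and 41.0% of those past the 75th percentile floor. The count was 4 of 12 under either scaling, beside 17.9% and 16.2% of all genes, with medians of -0.35 and -0.14. Capns1, which encodes the small calpain subunit, read 6.41 in beta cells, 10.08 in deleted and 10.26 in wild-type ductal cells, and Calm2, a calmodulin gene, read 10.05, 11.11 and 11.22 in the same order. Of 9 actin and myosin genes, 0 were 2-fold apart between the ductal arrays (median -0.24). Compared with wild type, 5 were lower in beta cells by 2-fold or more (median -1.06), beside 25.8% of all genes. After quantile normalization 2 were, beside 17.9%, and with the loess trend removed 0 were, beside 16.2%. Myl6, a myosin light chain gene, was 4.21-fold lower as deposited. Cd14, a co-receptor of Tlr4 counted here among monocyte markers, read 5.79 in beta cells, 9.60 in deleted and 9.76 in wild-type ductal cells, while most other markers of that list were below the floor in ductal cells (4 of 10 were above it in each ductal array).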
